A study of Homo sapiens with 4 samples.

Results

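The genes described here are 8 genes of the alpha- and beta-tubulin families (TUBA1A, TUBA1B, TUBA1C, TUBB, TUBB2A, TUBB3, TUBB4B and TUBB6) and 2 genes of microtubule-associated proteins, MAP2 and MAP1B. They were chosen by gene symbol, and all 10 were found among the 16834 genes of the deposited table. MAP2 entered the list because it was already known to be among the largest rises with both drugs in these data, so its rise is a description and not a test. RNA was sequenced from untreated control cells and from cells given 1 µM NBT (neobractatin, a natural compound of Garcinia bracteata), 5 µM trametinib (which blocks the kinase MEK) or both drugs at those doses (the combination), each for 12 h. Each of the 4 conditions was 1 library, so no value has a replicate, and variation between cultures cannot be told apart from the effect of a drug. All libraries carry the genotype label WT and are titled MIA PaCa-2, an established line of human pancreatic ductal adenocarcinoma (PDAC), although the cell line entries of the 3 treated libraries give other numbers after the name.

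Microtubules are hollow polymers of dimers of alpha- and beta-tubulin. Each of these subunits is encoded by several genes, called isotypes, whose proteins are nearly alike except at the acidic tail, which faces outward and is the place where enzymes add further glutamates. Cells adjust tubulin mRNA to the amount of unpolymerized tubulin through a factor, TTC5, that recognizes the first residues of a tubulin chain as it leaves the ribosome. MAP2 and MAP1B bind along the microtubule wall and stabilize it, and they are best known from the dendrites and axons of neurons, as is the isotype encoded by TUBB3.

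The sums of the estimated counts lay between 18776212 and 19614763 reads, so that 3 counts, the floor used for genes at 0, were 0.153 to 0.160 CPM (counts scaled to a library sum of 1000000). Genes that report the state of both drugs were checked first. DUSP6, a phosphatase gene driven by MEK signaling, had 329 reads in control cells, 521 under NBT, 14 under trametinib and 9 under both drugs. HMOX1, a stress-induced heme oxygenase gene, had 121, 4825, 382 and 44631 reads in the same order. The cell line was checked with 5 markers. The keratin genes KRT8 and KRT18 were abundant, as in an epithelial carcinoma. MIA PaCa-2 is known for a deletion of CDKN2A, little CDH1 and abundant VIM, whereas CDKN2A had 2643 to 3524 reads, CDH1 had 2539 to 4086 and VIM had only 202 to 500. These 3 genes go against the name MIA PaCa-2 in all 4 libraries, and the results below belong to the cells sequenced, whichever line they were.

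How alike the tubulin genes are decides how well their reads can be told apart, so their sequences are given first. The lines below show the first 30 coding bases, with the first 4 codons, which encode the residues read by TTC5, in capitals. Sequences are from GENCODE release 29 (GRCh38), 5′ to 3′ on the coding strand.

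TUBA1A: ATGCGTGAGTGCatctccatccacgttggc

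TUBA1B: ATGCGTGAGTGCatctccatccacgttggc

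TUBA1C (NM_032704.5): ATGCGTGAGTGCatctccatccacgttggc

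TUBA1C (NM_001303114.1): ATGACAGCCTGGttcaatggggtggaggag

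TUBB: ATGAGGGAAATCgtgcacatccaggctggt

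TUBB2A: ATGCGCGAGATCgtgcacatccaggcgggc

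TUBB3: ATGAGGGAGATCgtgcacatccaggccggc

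TUBB4B: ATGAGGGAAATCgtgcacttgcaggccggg

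TUBB6: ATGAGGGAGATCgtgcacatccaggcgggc

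The 30 bases were identical in TUBA1A, TUBA1B and the NM_032704.5 form of TUBA1C, and the beta-tubulin genes differed from each other at a few positions. In the alpha-tubulin genes an intron splits these 30 bases. NM_001303114.1 starts upstream and lacks these codons at its start. To that form the authors' estimate assigned from 90.1% to 91.5% of the TUBA1C reads in each library. This share comes from a model that divides reads between overlapping transcripts. The effective lengths were 1650 bases for that form and 2774 for NM_032704.5. Which start codon the reads came from was not tested. The last 60 coding bases of the beta-tubulin genes before the stop codon follow, with in-frame glutamate codons in capitals, since this is where isotypes are known to differ most.

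TUBB: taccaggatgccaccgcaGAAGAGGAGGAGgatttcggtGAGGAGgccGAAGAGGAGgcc

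TUBB2A: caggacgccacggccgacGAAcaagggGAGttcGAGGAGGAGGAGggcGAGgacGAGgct

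TUBB3: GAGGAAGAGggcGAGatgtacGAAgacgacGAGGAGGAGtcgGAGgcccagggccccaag

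TUBB4B: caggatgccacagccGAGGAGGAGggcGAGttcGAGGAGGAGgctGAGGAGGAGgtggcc

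TUBB6: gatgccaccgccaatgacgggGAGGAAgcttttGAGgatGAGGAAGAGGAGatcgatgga

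No pair of these tails was identical. The number of glutamate codons ranged from 7 in TUBB6 to 10 in TUBB4B. Over the whole coding sequence TUBA1A and TUBA1B shared 97.2% of their bases, and TUBA1B and the NM_032704.5 form of TUBA1C shared 96.8%. Identity between beta-tubulin members was lower, from 80.9% (TUBB and TUBB6) to 87.7% (TUBB2A and TUBB3).

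The share of 50-base stretches of a gene's transcript that also occur in transcripts of another gene was counted, on the transcript with most reads for the tubulin genes, as a measure of reads that could be divided wrongly. It was 41.1% for TUBA1A, 62.7% for TUBA1B and 45.0% for TUBA1C, which overlap mostly with each other. The longer NM_032704.5 form of TUBA1C, with few of its reads, had 25.1%. It was 65.5% for TUBB2A, mostly shared with its near copy TUBB2B, and 18.2% for TUBB, mostly shared with the pseudogene TUBBP1. TUBB4B had 9.89% and TUBB6 had 0.993%. TUBB3 had 89.4% because a read-through transcript with the upstream gene (AC092143.1) contains it, and 8.9% without that transcript. MAP2 and MAP1B had none over all their GENCODE transcripts, 16 and 6 in number. Correspondingly, the deposited counts of MAP2 and MAP1B were whole numbers in every library, while those of the 8 tubulin genes were not. In GENCODE, TUBA1A (chr12:49184796-49189324, minus strand) and TUBA1C (chr12:49188736-49274603, plus strand) also overlap on opposite strands, and whether counting used the strand is not given in the sources used here. Values of TUBA1A and TUBB2A in particular are therefore uncertain, as a small share of reads from an abundant relative would change them.

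In the control library the tubulin genes spanned a wide range of levels. TPM, a read count per transcript length scaled to a fixed sum, allows levels of different genes to be compared. TUBA1B had 4919.37 TPM, the 13th highest of all genes, followed by TUBB (2479.42), TUBB4B (1511.25) and TUBA1C (1283.88). TUBB3 and TUBB6 had 199.52 and 157.87 TPM, and TUBB2A and TUBA1A had 16.16 and 7.22 TPM. MAP2 stood at 0.57 TPM and MAP1B at 0.06 TPM. The cells thus carried 4 abundant isotypes, a pair at an intermediate level and a pair of rare ones, with hardly any mRNA of either microtubule-associated protein.

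**Figure D1:**
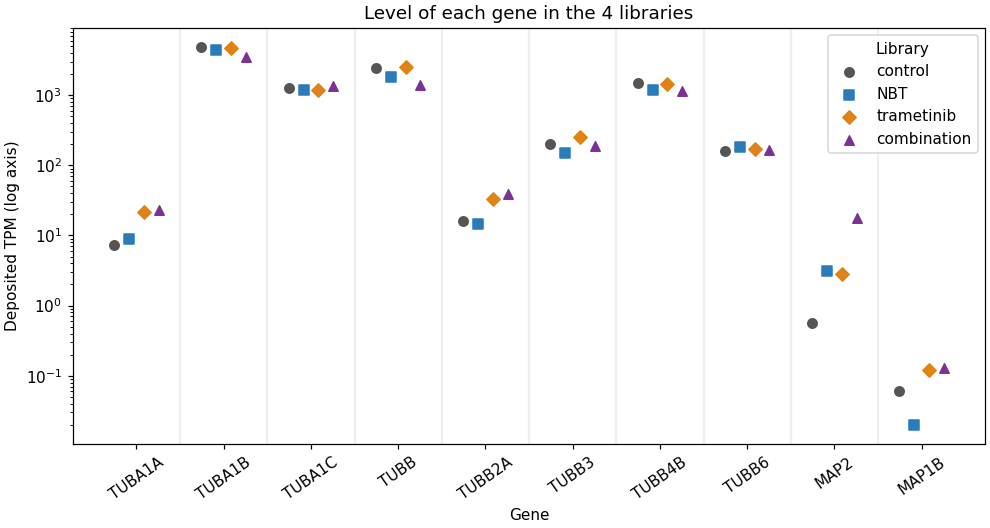
Deposited TPM (log axis) of each of the 10 genes, with 1 point per library and no error bars, since each condition had 1 library. TUBA1A and TUBB2A lie higher in both trametinib-treated libraries, MAP2 climbs from 0.57 TPM in the control to 17.91 TPM with the combination, and TUBB is lowest with the combination.

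Differences between libraries are given as log2 ratios of scaled counts with 95% intervals from the binomial distribution, which cover counting error only. A gene was called when an exact binomial test of both counts passed a false discovery rate of 0.05 over all genes and the absolute log2 ratio was at least 1. The test compares 2 libraries and not conditions, and in such bulk RNA fewer cells of a kind and less RNA per cell cannot be told apart. Against the control, 1 of the 10 genes was called higher with NBT (MAP2), beside 1.63% of all genes, and none lower, beside 1.13%. With trametinib 3 were called higher (MAP2, TUBA1A and TUBB2A), beside 3.86%, and none lower, beside 2.28%. The combination gave the same 3 as higher, beside 4.89%, and none lower, beside 3.83%. All 3 comparisons share the control library. Since MAP2 was chosen from these values, the counts describe the list and are not evidence about it.

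**Figure D2:**
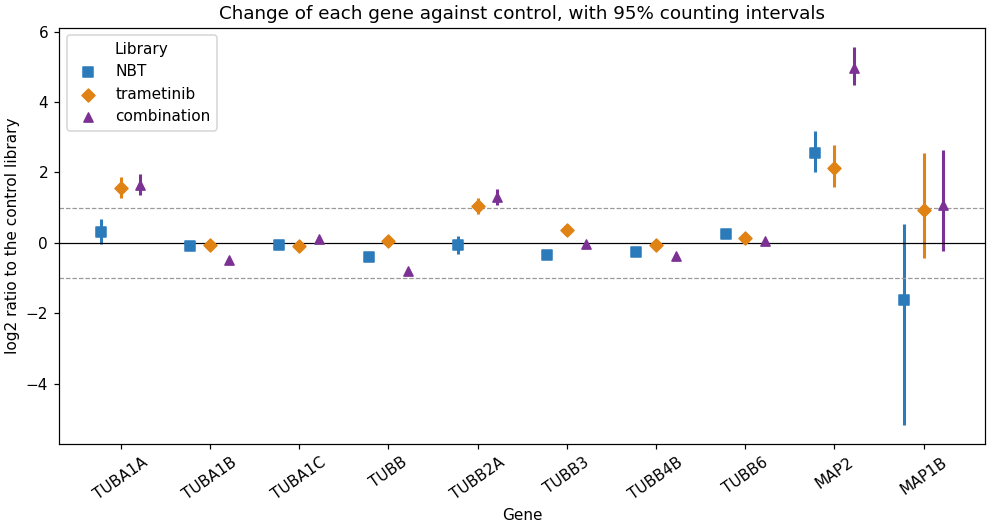
Log2 ratio of each gene to the control library for NBT, trametinib and the combination. Vertical lines are 95% counting intervals and dashed lines mark the limit of 1. MAP2 lies above the limit in all 3 treated libraries, TUBA1A and TUBB2A only in those with trametinib (TUBB2A just below it with TMM or DESeq2 factors in trametinib alone), and MAP1B has intervals that include 0 throughout.

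Among the alpha-tubulin genes, TUBA1B, the most abundant isotype of these cells, had an estimated 74880 reads in control cells, 72290 under NBT, 73044 under trametinib and 56548 under both drugs. Its log2 ratio to the control was -0.10 (-0.12 to -0.09) under NBT, -0.05 (-0.06 to -0.03) under trametinib and -0.47 (-0.48 to -0.45) under both drugs. The combination library was thus the low one, by 27.7%, short of the limit for a call. TUBA1C, a close relative of TUBA1B, had 21291, 21132, 20155 and 23872 reads in the same order, and its log2 ratio was 0.10 (0.08 to 0.13) with the combination. TUBA1C therefore did not share the lower value of TUBA1B in the combination library.

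TUBA1A, which is the main isotype of developing neurons, had 121 reads in control cells, 157 under NBT, 363 under trametinib and 399 under both drugs. Both libraries treated with trametinib were high and both without it were low. TUBA1A rose by a log2 ratio of 1.57 (1.27 to 1.88) with trametinib and 1.65 (1.36 to 1.96) with the combination, while with NBT the value was 0.32 (-0.03 to 0.68). Adding trametinib to NBT gave 1.33 (1.06 to 1.61), and adding NBT to trametinib gave 0.09 (-0.12 to 0.30). Its share of the TPM summed over the 3 alpha-tubulin genes described here was 0.116% in the control and 0.483% with the combination. TUBA1A shared 32.6% of its 50-base stretches with TUBA1B and 24.5% with TUBA1C. Their log2 ratios in the trametinib library were -0.05 and -0.09. Whether reads of these abundant genes were counted for TUBA1A was not tested.

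Among the beta-tubulin genes TUBB, the major isotype, had 58988 reads in control cells, 46092 under NBT, 61847 under trametinib and 35588 under both drugs. The log2 ratio was -0.41 (-0.42 to -0.39) with NBT and -0.79 (-0.81 to -0.77) with the combination, the lowest value of the 10 genes in that library. With trametinib it was 0.05 (0.04 to 0.07), and the sign turned with TMM (-0.02) and DESeq2 (-0.01) factors. Both libraries with NBT were therefore low, and the one that also had trametinib was the lower. Against the trametinib library the combination stood at -0.85 (-0.87 to -0.83). None of these values reached the limit of 1.

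TUBB4B, which encodes a widely expressed isotype also found in cilia, had 22071, 19045, 21416 and 17713 reads in the order control, NBT, trametinib and combination. Its log2 ratio was -0.26 (-0.29 to -0.23) with NBT and -0.38 (-0.41 to -0.35) with the combination. As for TUBB, both libraries with NBT were low, by smaller differences. TUBB6 had 2719, 3338, 3005 and 2967 reads, with log2 ratios of 0.25 (0.17 to 0.32) for NBT and 0.06 (-0.01 to 0.14) for the combination. It was the only beta-tubulin member whose level with NBT alone lay above the control by more than counting error.

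TUBB3, the isotype used as a neuronal marker and studied in carcinomas treated with taxanes, had 3206 reads in control cells, 2603 under NBT, 4193 under trametinib and 3264 under both drugs. It was lower with NBT, by a log2 ratio of -0.35 (-0.43 to -0.28), and higher with trametinib, by 0.37 (0.31 to 0.44). In the combination library these differences met at -0.04 (-0.11 to 0.03), an interval that includes 0. The estimate placed from 94.6% to 98.1% of its reads on the transcript NM_006086.4, and the rest on NM_001197181.2. By the distance between log2 ratios over the 3 treated libraries, the genes nearest to TUBB3 among 10662 genes with at least 100 reads were CYP2S1, KLF11, MRTFA, ARHGAP17 and EID2, at distances of 0.04 to 0.07. The counting intervals of the TUBB3 ratios were wider than these distances, so these genes are a list of values only.

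TUBB2A, a minor isotype of these cells, had 244 reads in control cells, 242 under NBT, 510 under trametinib and 628 under both drugs. As for TUBA1A, both libraries with trametinib were high and the others low. TUBB2A rose by 1.05 (0.83 to 1.28) with trametinib and by 1.30 (1.09 to 1.52) with the combination, and NBT alone left it at -0.06 (-0.32 to 0.20). The trametinib value was 0.97 with TMM and 0.98 with DESeq2 factors, where the call was lost. If cultures are taken to vary by a coefficient of 0.2, its calls with trametinib and with the combination were both lost. TUBB2B, its near copy, had 18, 11, 33 and 36 reads. Over all genes with at least 100 reads, TUBA1A ranked 105th and TUBB2A 258th by log2 ratio in the trametinib library.

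Sums over a family do not depend on how reads were divided between its members. The 3 alpha-tubulin genes summed to 96292 reads in control cells, 93579 under NBT, 93562 under trametinib and 80819 under both drugs. The 5 beta-tubulin genes summed to 87228, 71320, 90971 and 60160 reads. Beta-tubulin mRNA was thus lower with NBT by a log2 ratio of -0.34 (-0.35 to -0.33) and with the combination by -0.60 (-0.61 to -0.58), and alpha-tubulin mRNA by -0.09 (-0.10 to -0.08) and -0.32 (-0.33 to -0.30). All 8 genes together took 0.977% of the reads in control cells, 0.848% under NBT, 0.974% under trametinib and 0.719% under both drugs. The median log2 ratio of the 8 genes was -0.08, 0.09 and 0.01 for NBT, trametinib and both drugs, beside medians over all 11367 genes with at least 50 reads in a library of 0.00, 0.06 and 0.02. The median and the sum differ because TUBA1B and TUBB, which hold most reads, set the sum, while each gene counts alike in the median. In the libraries with trametinib TUBA1A and TUBB2A, with few reads, also rose, which hardly enters the sum.

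The make-up of each family moved with these differences. TUBB made up 56.8% of the beta-tubulin TPM in the control and 47.8% with the combination, while TUBB4B went from 34.6% to 38.8%. TUBB3 went from 4.57% to 6.49%, TUBB6 from 3.62% to 5.59% and TUBB2A from 0.370% to 1.33%. Among the 3 alpha-tubulin genes described here, TUBA1B went from 79.2% to 71.6% and TUBA1C from 20.7% to 27.9%. Over the 8 genes the combination library therefore had less mRNA in total, with a smaller part of it from the leading isotype of either family.

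MAP2 (NCBI Gene 4133, chr2:209424058-209734118, plus strand) had 30 reads in control cells, 184 under NBT, 135 under trametinib and 1001 under both drugs. The control was lowest, both single drugs lay between, and the combination was far above all others. MAP2 rose by a log2 ratio of 2.55 (2.0 to 3.17) under NBT, 2.14 (1.58 to 2.78) under trametinib and 4.97 (4.47 to 5.57) under both drugs. Adding NBT to trametinib gave 2.84 (2.58 to 3.11), and adding trametinib to NBT gave 2.43 (2.2 to 2.67). Relative to the trametinib library MAP2 was the only one of the 10 genes called, as higher, beside 2.64% of all genes called higher and 3.73% called lower. Among the 10662 genes with at least 100 reads in a library, its log2 ratio ranked 14th under NBT, 37th under trametinib and 4th under both drugs. MAP2 was listed for its rise in these data, so the ranks restate that choice and are no support for it. It reached 100 reads only in the treated libraries. At 17.91 TPM with the combination, MAP2 was below the level of TUBB2A in the same library.

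The authors listed 52 RefSeq transcripts of MAP2. Of these, 10 were detected in control cells, 22 under NBT, 19 under trametinib and 41 under both drugs. This number was higher in libraries with more MAP2 reads, so it is not read as a change of forms. No transcript took more than 6.56% of the MAP2 reads in the combination library, so single transcripts were not compared. MAP2 is known for long forms, which contain a large extra exon, and short forms without it. The effective length of each transcript was computed from its count and FPKM. Since FPKM values are rounded, lengths of transcripts with few reads are rough. NM_001375527.1 and NM_001375503.1, which hold the control reads of the longest class, had at most 0.01 and 0.02 FPKM. The intervals below do not cover this error. The 20 transcripts over 8000 bases had 2.8 reads in control cells, 45.0 under NBT, 23.1 under trametinib and 180.6 under both drugs, which was 9.26% (exact binomial 95% interval 2.11 to 26.5), 24.5% (18.4 to 31.3), 17.1% (11.1 to 24.5) and 18.0% (15.7 to 20.6) of the MAP2 reads. The 29 transcripts between 4000 and 8000 bases held 26.5, 131.7, 99.5 and 778.0 reads. A single transcript under 4000 bases held 0.8, 6.6, 12.4 and 42.4 reads, at most 9.15% (4.68 to 15.0, under trametinib). Most reads in each library were thus assigned to the middle class, and all 3 classes had most reads with the combination. These values are estimates of a model that divides reads between overlapping transcripts.

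**Figure D3:**
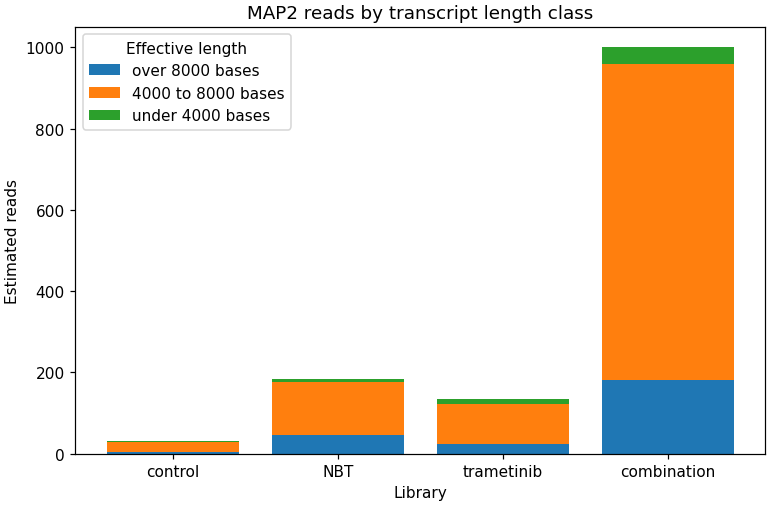
Estimated MAP2 reads in each library, stacked by the effective length of the RefSeq transcript to which they were assigned. The combination bar reaches 1001 reads, of which 778.0 lie in the class of 4000 to 8000 bases and 180.6 in the class over 8000 bases.

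The genes nearest to MAP2 by the same distance were LCN2, which encodes an iron-siderophore binding protein, SLC7A11, the cystine importer, BEST1, a chloride channel gene, ADM2, a peptide hormone gene, and the chemokine gene CXCL2. Their distances lay between 1.08 and 1.43, and each had a smaller ratio than MAP2 with the combination and with trametinib. SLC7A11 had 279 reads in control cells, 2491 under NBT, 739 under trametinib and 5136 under both drugs, and LCN2 had 11, 69, 27 and 248.

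MAP1B (NCBI Gene 4131), whose protein works beside MAP2 in neurons and is cut into a heavy and a light chain, had 7 reads in control cells, 2 under NBT, 14 under trametinib and 16 under both drugs. The 2 libraries with trametinib were higher than those without. Its log2 ratio to the control was -1.63 (-5.16 to 0.54) under NBT, 0.94 (-0.42 to 2.54) under trametinib and 1.07 (-0.23 to 2.65) under both drugs, so no difference from the control was detectable at this depth. Against the NBT library the combination stood at 2.71 (0.90 to 6.15), which was called and rests on 16 and 2 reads, and with the deposited TPM and a pseudocount of 0.1 it was 0.94 and lost its call. In that comparison 4 of the 10 genes were called higher (MAP2, TUBB2A, TUBA1A and MAP1B), beside 2.38% of all genes, and none lower, beside 2.16%. At so few reads the 5 genes nearest to MAP1B (CXCL16, PER1, CPA4, FSTL3 and NEURL1B) are a list of values only, at distances of 1.00 to 1.15.

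The design asks how the drugs act together, and the combination was compared with the sum of the single-drug log2 ratios. For MAP2 the sum was 4.68 and the combination 4.97, a difference of 0.29. Multiplying the single-drug ratios gives an expected 828 reads, against 1001 observed. The expected value rests on 30, 184 and 135 reads in the control, NBT and trametinib libraries. The intervals of the single-drug ratios, 2.0 to 3.17 and 1.58 to 2.78, were wider than 0.29. The difference is therefore not read as more than multiplication. For TUBB the sum was -0.35 and the combination -0.79, and for TUBA1B they were -0.15 and -0.47, so both stood below the sum, by 0.44 and 0.32. TUBA1A (-0.24) and TUBB6 (-0.31) were also below it, TUBA1C (0.26) and TUBB2A (0.31) above it, and TUBB3 and TUBB4B within 0.06 of it. MAP1B departed most, by 1.77, on counts of at most 16 reads. No gene of the 9 with at least 50 reads in a library departed by 1 or more, beside 2.33% of all such genes.

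**Figure D4:**
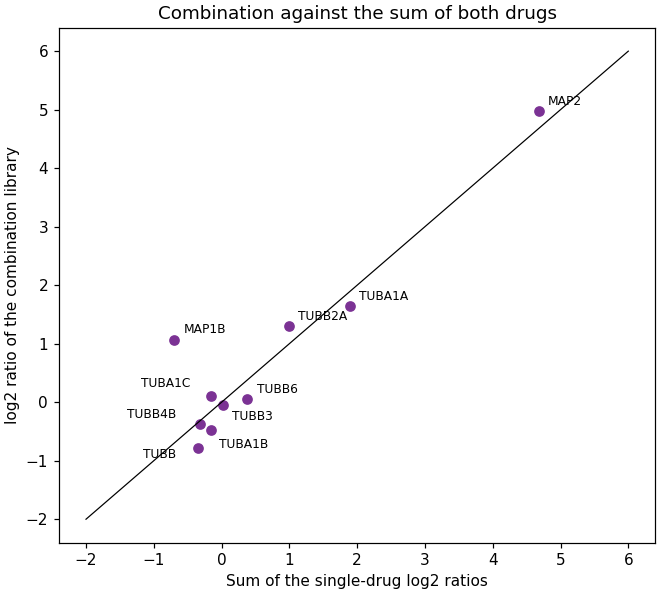
Log2 ratio of the combination library against the sum of the log2 ratios of both single drugs for each of the 10 genes, with the line of equality. MAP2 lies near the line at 4.68 and 4.97, TUBB and TUBA1B lie below it, and MAP1B, which had at most 16 reads, lies farthest from it.

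Other genes of the microtubule system were taken from lists. Of 14 other tubulin genes, TUBE1, which encodes epsilon-tubulin of the centriole, was called higher with NBT (409 reads in the control and 1017 with NBT, log2 ratio 1.26) and with the combination (1023 reads, 1.26), and had 421 reads with trametinib. TUBB1 (13 control reads against 1) and TUBB8 (19 and 7) were called lower with the combination, on few reads. TUBG1, the gamma-tubulin gene of nucleation sites, had 3667, 2957, 2992 and 2102 reads, with a log2 ratio of -0.87 for the combination. TUBA4A had 3110, 3732, 2159 and 2865 reads, with a log2 ratio of -0.54 for trametinib. None of the 10 other structural microtubule-associated protein genes in the table was called against the control. MAP4, the gene with most reads among them, had 5650, 5317, 7139 and 7664 reads. MAP2 was thus the only such gene called in any of the 3 libraries, MAP1B included.

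None of the 20 genes for the folding of tubulin (prefoldin, the CCT chaperonin and the tubulin cofactors) was called in any comparison with the control. The shares of all genes given above stand beside this list and those that follow. The median log2 ratio of the 20 genes was 0.04 under NBT, 0.01 under trametinib and -0.06 under both drugs. CCT7, the gene with most reads in this list, had 10527, 10902, 10280 and 9796 reads. TTC5, SCAPER and CNOT11, which act in the decay of tubulin mRNA, were not called either and had log2 ratios of 0.28, 0.35 and 0.15 with the combination. The 14 tubulin-modifying enzyme genes and the 9 nucleation genes gave no call. Among 11 plus- and minus-end factors, MAPRE3, an end-binding protein gene, was called higher with the combination (163 and 432 reads, 1.34), and had 261 and 252 reads with NBT and trametinib. Among 12 stathmin, severing and depolymerizing kinesin genes, STMN3, a tubulin-sequestering protein gene, was called lower with trametinib (154 and 76 reads, -1.03) and with the combination (43 reads, -1.89). Of 11 genes of kinases and partners, MAP1LC3B, whose protein was first isolated as a light chain of MAP1 proteins and marks autophagosomes, was called higher with NBT (810 and 2978 reads, 1.83) and with the combination (4286 reads, 2.34). Its near copy MAP1LC3B2 was called higher with the combination (21 and 70 reads).

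Because MAP2, MAP1B, TUBB3 and TUBA1A are known from neurons, markers of neurons and of other cells were read beside them. Of 16 neuronal markers 12 were in the table, and from 7 (NBT) to 11 (trametinib and combination) of them had a read. Their summed level was 142.9 TPM in the control, 84.8 under NBT, 181.3 under trametinib and 152.2 under both drugs, most of it from L1CAM, an adhesion gene that carcinomas also express. ENO2 had 507 reads in control cells, 402 under NBT, 693 under trametinib and 495 under both drugs. SYP had 34, 24, 44 and 36 in the same order. SYN1 and GAP43 had at most 1 read, and RBFOX3 at most 4. UCHL1, a ubiquitin hydrolase gene, had no read in control cells or under NBT, 29 under trametinib and 27 under both drugs, which against the control is at least 9.58-fold and 8.62-fold higher when 3 counts stand in for the 0 of that library. INA, an intermediate filament gene, had 1, 0, 5 and 9 reads. Markers of other cells, 6 of 10 of which were in the table, summed to between 1.7 and 7.3 TPM. CD3E, a T-cell receptor gene, had 0, 0, 55 and 29 reads, at least 18.2-fold higher with trametinib, while PTPRC, which all leukocytes carry, had from 8 to 17 reads. COL1A1, a collagen gene of fibroblasts, had 45, 27, 98 and 53 reads, VWF, an endothelial gene, had 3, 4, 25 and 6, and the acinar gene CPA1 was at 0 in the 3 treated libraries. VIM rose with trametinib (202 and 425 reads, 1.06) and with the combination (500 reads, 1.24). KRT18 fell with both (41334 reads in the control, 14162 and 14049). KRT8 had 63594 reads in the control, 57181 under NBT, 38101 under trametinib and 26811 under both drugs. The part of these genes in the values of TUBA1A and TUBB2A, which rose in the same libraries, was not tested.

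Finally, the promoters of the genes that moved were read for short motifs, in the 250 bases before each RefSeq start site (GRCh38.p14). That of TUBB2A, which rose with trametinib, is shown because it alone of the windows read held a match to the CRE motif. It is written 5′ to 3′ on the strand of the gene, with matches to the motifs in capitals.

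TUBB2A, chr6:3157545-3157794, minus strand: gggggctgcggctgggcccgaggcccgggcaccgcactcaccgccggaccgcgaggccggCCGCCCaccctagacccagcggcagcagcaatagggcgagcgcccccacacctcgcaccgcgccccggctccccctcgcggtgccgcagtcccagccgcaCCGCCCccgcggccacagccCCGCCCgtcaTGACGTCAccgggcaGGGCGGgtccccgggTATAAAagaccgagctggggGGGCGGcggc

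Of the 7 motifs searched on both strands, the first was CCAAT, the box bound by NF-Y. The second was TATAAA, the TATA box, and the third was GGGCGG, the GC box bound by SP1. The others were TGANTCA (AP-1), CACGTG (the E-box), TGACGTCA (the CRE) and TGATGCAA (bound by ATF4). The TUBB2A window held 5 GGGCGG matches, 1 match to the TATA box and 1 to the CRE, none of which overlapped. The TUBA1A window (chr12:49189081-49189330, minus strand) held 2 matches to the NF-Y box and none of the other motifs, so that no motif was present in both isotypes that rose with trametinib. The first TUBB window (chr6:30720102-30720351, plus strand) held 1 match to the NF-Y box and 1 GC box. Longer GENCODE transcripts of TUBA1A and TUBB reach into these last 2 windows. Of 35116 RefSeq windows of this length, 32.0% held the NF-Y box, 42.6% the GC box, 10.7% the TATA box and 1.65% the CRE. Of the 3 MAP2 windows, 1 held a match to the NF-Y box and the others held none of the motifs. The AP-1 motif, which 6.57% of all windows held, was found in 1 window of TUBB3 and in no other window of the 10 genes. The E-box was found in 1 window of TUBA1C and 1 of TUBB, beside 6.34%, and the ATF4 motif in none, beside 0.772%.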

How the data were processed

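1 RNA library per condition (control, NBT, trametinib, combination) was read on a BGISEQ-500 instrument. Bowtie2 2.2.5, RSEM 1.2.8 and the build hg38 are named in the submitters' processing notes, without their roles. The authors deposited an estimated count (not normalized), a TPM and an FPKM value per library for 16834 genes and 70268 RefSeq transcripts. Reads matching several genes were divided between them in the deposited counts. Library sums, from 18776212 to 19614763 reads, set the precision, and intervals and floors cover counting error only, since PCR reads are not independent molecules.

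Counts were rounded, scaled to library sums and given 0.5 reads before log2 ratios were taken. An exact two-sided binomial test with Benjamini-Hochberg adjustment was run on genes counted in at least 1 of the libraries compared, after the Poisson test and limits of the study's methods. No p-value is given, since the test compares libraries. Intervals are Clopper-Pearson intervals. The steps were tested on simulated data. The 10 genes and the gene lists were chosen with earlier results of these data known. Named were the 10 genes, genes of the lists called against the control, the gene with most reads of a list, and the 5 genes nearest to MAP2, MAP1B and TUBB3 by Euclidean distance. Other genes named for their values (TUBB2B, TUBA4A, TTC5, SCAPER, ENO2, SYP and markers at or near 0) were chosen after these were seen. Promoter windows of all 10 genes were matched by symbol. Alternatives were TMM (edgeR 4.0.16) and DESeq2 1.42.0 size factors, TPM with a pseudocount of 0.1, 5 added reads, summed transcript counts, a minimum of 10 counts, log2 limits of 0.5 and 2, and edgeR's negative binomial exact test with assumed coefficients of variation of 0.2 and 0.4. Software was R 4.3.3, Biopython 1.88, numpy 2.4.6, scipy 1.17.1, Python 3.11.15 and pandas 2.3.3.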

Additional observations from a re-analysis of the deposited data

Results flagged for a closer look

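For 3 genes a drug went with opposite directions when given alone and when added to the other drug, with both counting intervals on one side of 0. With NBT, TUBA1C had a log2 ratio of -0.06 alone and 0.19 when NBT was added to trametinib, and with trametinib it had -0.09 alone and 0.16 when trametinib was added to NBT. TUBB had 0.05 with trametinib alone and -0.39 when trametinib was added to NBT, and the first of these values was -0.02 with TMM and -0.01 with DESeq2 factors. TUBB6 had 0.13 with trametinib alone and -0.18 when trametinib was added to NBT. With TMM factors these were 0.06 and -0.22, and with DESeq2 factors 0.07 and -0.21. Each value rests on 1 library per condition, and the difference between them was not tested.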

How the results depend on the processing

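The log2 ratios of the 10 genes kept their direction under all scalings, pseudocounts and summed transcript counts, except TUBB with trametinib, which had -0.02 with TMM and -0.01 with DESeq2 factors. Of the recomputed ratios and departures from additivity, 229 stayed within their counting interval and 51 moved further. Call counts changed with the limits and the assumed variation. With a coefficient of variation of 0.2 between cultures, 1 of the 4 calls of the combination against NBT was left (MAP2), and 2 of 3 were left with trametinib and with the combination against control, TUBB2A being lost in both. With 0.4, the calls fell to 0 with NBT, 0 with trametinib, 1 with the combination, and 0 in both comparisons of the combination with a single drug. A log2 limit of 2 left 1 call with trametinib, 1 with the combination and 2 for the combination against NBT, and a limit of 0.5 gave 2 for the combination against trametinib and 4 for the combination against control, TUBB being added as lower in both. TUBB2A lost its call with trametinib under both TMM and DESeq2 factors. MAP1B against the NBT library moved from 2.71 to 0.94 with the deposited TPM, where its call was lost. The tubulin median with trametinib was 0.02 (TMM), 0.03 (DESeq2) and -0.01 (summed counts), against 0.09. For the combination against NBT it was -0.01 (TMM), 0.05 (TPM) and -0.24 (summed counts), against 0.02. For the combination against control, 0.01, it lay at -0.01 (TMM) and -0.02 (DESeq2). Summed counts gave -0.20 with NBT and -0.44 for the combination against control and against trametinib, as the sums are set by TUBA1B and TUBB. No paired analysis was possible because each condition had 1 library, and leaving out a library was not possible either. The variation between cultures was not measured, and MAP1B is limited by depth.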
